A study of Caenorhabditis elegans with 18 samples.

Results

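The genes described here are 14 Caenorhabditis elegans genes whose mRNA was raised by heat shock in wild-type larvae, in larvae carrying the hsf-1(sy441) allele and in a transgene strain, and which reached at least 0.8 times the wild-type level in hsf-1(sy441) at 34 °C. They include a bZIP transcription factor gene (zip-10), a UDP-glucuronosyltransferase gene (ugt-14), a ground-like gene (grl-17), an F-box gene (fbxb-72), 2 genes named for sperm functions (spe-36 and spe-5) and 8 genes with only a sequence name. They were selected on CPM (fragments of a gene scaled to a library total of 1000000). In each of the 3 strains the mean at 34 °C had to be at least 5 CPM and at least 3 times the mean at 20 °C, and every 34 °C library had to lie above every 20 °C library. Of 20275 genes with a usable count in every library, 24 met these heat conditions (0.118%), after 5 named genes had been left out by the rule. The ratio of hsf-1(sy441) to N2 at 34 °C divided these 24 into the 14 genes and 10 others.

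Polyadenylated RNA from whole larvae in the second larval stage (L2) was sequenced in 18 libraries, 3 for each of 6 groups. N2, the laboratory wild type, was compared with strain PS3551, which carries hsf-1(sy441), and with strain AM1062, which carries hsf-1(sy441), unc-119(ed9) and the inserted transgene rmSi1[hsf-1::gfp], and is called the transgene strain below. Larvae of each strain were collected either from growth at 20 °C or after 30 min on plates submerged at 34 °C. The fed, synchronized larvae of all groups were otherwise raised alike, and both mutant groups share the hsf-1(sy441) allele. Neither the promoter of the transgene nor the number of cultures behind the replicates is given in the sources used, so a p-value measures only the spread between these libraries.

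HSF-1 is the heat shock transcription factor of the worm, and it drives the heat-inducible chaperone genes of the hsp-70 and hsp-16 families. The sy441 allele is a point mutation that truncates the protein within its transactivation domain, so the animals may still make part of HSF-1, and the level of the hsf-1 mRNA does not check the label. A gene that keeps its heat response in this allele is therefore not shown to be independent of hsf-1. Other regulators known to act in stressed worms include SKN-1, ATFS-1, CEBP-1 and the forkhead factor DAF-16.

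Libraries held between 14866737 and 32312137 fragments in usable genes. hsf-1 itself ranged from 38.3 to 42.8 CPM in N2 at 20 °C, and its mean was 116.8 ± 9.71 CPM in hsf-1(sy441) and 119.3 ± 13.3 CPM in the transgene strain (mean ± SD, n = 3 throughout). unc-119 was at 3.27 ± 0.616 CPM in the transgene strain, labelled unc-119(ed9), against 18.8 ± 1.97 CPM in N2 and 23.1 ± 0.678 CPM in hsf-1(sy441). hsp-70 reached 1007 ± 194 CPM in N2, 61.2 ± 11.8 CPM in hsf-1(sy441) and 613 ± 73.3 CPM in the transgene strain at 34 °C. At 20 °C the third library of the transgene strain stood apart in heat shock genes, with hsp-16.41 at 58.1 CPM where libraries 1 and 2 had 0.279 and 0.366 CPM, hsp-16.2 at 24.6 CPM against 0.558 and 0.686 CPM, and hsp-70 at 1.504 CPM against 0.726 and 0.732 CPM. The third N2 library at 20 °C was also the highest of its group, at 1.18 CPM of hsp-16.41 against 0.254 and 0.335 CPM and 1.61 CPM of hsp-16.2 against 0.338 and 0.260 CPM. All 27 listed markers of intestine, body wall muscle, hypodermis, neurons, pharynx and germ line were above 1 FPKM in every library. In whole larvae, fewer cells of a type and less RNA per cell cannot be told apart.

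Among the 24 heat-induced genes, the chaperone genes and the 14 genes lay at opposite ends of the ratio that divided them. hsp-16.2, hsp-16.41 and hsp-70 had ratios of 0.0645, 0.0845 and 0.0608, hsf-1(sy441) over N2 at 34 °C, and the uncharacterised R11A5.3 had 0.0794. The ratio of nurf-1, a nucleosome remodelling factor gene, was 0.287, that of ZC21.10 was 0.324 and that of cnc-4, an antimicrobial peptide gene, was 0.386. Just outside the threshold lay F34D10.4 at 0.682, enee-1 at 0.599 and Y56A3A.33 at 0.552. Just inside lay F15E6.3 at 0.815, T24C4.5 at 0.832 and F21C10.10 at 0.859. The ratio was above 1 for the other 11 genes, and it was highest for ugt-14 at 2.26, F41C3.2 at 2.17 and grl-17 at 1.95. With normalization factors (TMM) in place of library totals, the fitted log2 difference was above 0 for 9 of the 14 genes. It was then -0.09 for C13G3.1 and -0.04 for spe-5. The median log2 difference of all genes tested was 0.15 on library totals and 0.02 with TMM. The ratios chose the genes, and all these values are given as a description, with no test.

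**Figure D1:**
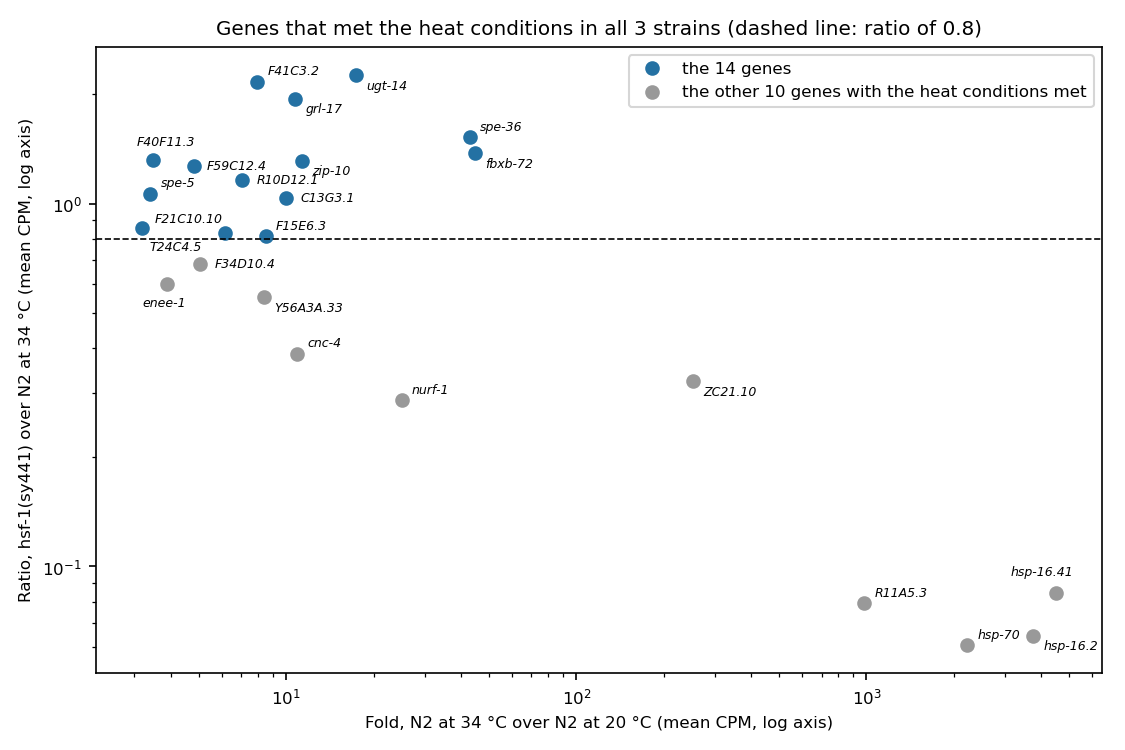
Each point is 1 of the 24 genes that met the heat conditions in all 3 strains. The horizontal log axis gives the fold of mean CPM in N2 between 34 °C and 20 °C, and the vertical log axis gives the ratio of mean CPM at 34 °C between hsf-1(sy441) and N2. The 14 genes lie above the dashed line at 0.8, with N2 folds from 3.19 (F21C10.10) to 44.6 (fbxb-72), while hsp-70, hsp-16.2 and hsp-16.41 lie at folds of 2229 and more and ratios of 0.0845 and less.

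Membership rested in part on single libraries. Without the third transgene library at 20 °C, the one with raised heat shock genes, the rule gave the same 14 genes, and the median log2 heat response of the 14 in that strain became 3.80, from 3.43. The fold of mean CPM on heat in the transgene strain then became 16.3 for F41C3.2, from 9.70, and that of R10D12.1 was 1.47 times as large, while spe-36 was left with 1 fragment in the other 20 °C libraries together. Without the second N2 library at 34 °C the rule kept 9 of the 14 genes, losing grl-17, F15E6.3, F21C10.10, F40F11.3 and spe-36, and admitted 3 others. Without that library the ratio of F15E6.3 became 1.78 and that of R10D12.1 became 1.90, from 1.16. Without the third N2 library at 34 °C the ratio of F41C3.2 became 4.04, that of F15E6.3 became 0.620, and both F15E6.3 and F21C10.10 left the list. Scaling the CPM with normalization factors (TMM) in place of library totals left 11 of the 14 genes, without F15E6.3, F21C10.10 and T24C4.5, in a list of 23.

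zip-10 encodes a bZIP transcription factor known in this worm for its induction when animals are rewarmed after cold. In N2 its level was 2.33, 2.08 and 1.72 CPM at 20 °C and 20.0, 21.3 and 28.1 CPM at 34 °C (libraries 1 to 3, in this order from here on). In hsf-1(sy441) it was 8.12, 4.52 and 8.16 CPM at 20 °C and 26.8, 30.2 and 34.1 CPM at 34 °C. In the transgene strain it was 4.07, 3.75 and 4.62 CPM before and 32.5, 28.9 and 35.3 CPM after heat. At 20 °C the strains were ordered without a single crossing between N2 and either mutant strain, N2 being lowest, while at 34 °C the hsf-1(sy441) libraries overlapped those of N2. The fitted log2 change on heat was 3.76 ± 0.21 in N2, 2.47 ± 0.20 in hsf-1(sy441) and 3.23 ± 0.21 in the transgene strain (± SE).

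ugt-14 encodes a UDP-glucuronosyltransferase, an enzyme class that conjugates small lipophilic molecules. Its level in N2 was 0.254, 0.446 and 0.914 CPM at 20 °C and 7.998, 7.66 and 12.5 CPM at 34 °C. In hsf-1(sy441) it was 3.27, 2.48 and 3.35 CPM and 19.8, 20.6 and 23.1 CPM at the same temperatures. The transgene strain had 0.447, 1.05 and 1.40 CPM at 20 °C and 12.9, 10.45 and 16.14 CPM at 34 °C. The hsf-1(sy441) libraries were above all N2 and all transgene libraries at both temperatures. The log2 change on heat was 4.43 ± 0.37 in N2 and 3.14 ± 0.32 in hsf-1(sy441). The N2 level at 20 °C rests on 35 fragments in the 3 libraries together, between 6 and 17 in each.

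grl-17 encodes a ground-like protein, a member of the hedgehog-related families of nematodes. N2 libraries held 0.380, 0.669 and 0.430 CPM at 20 °C and 5.57, 6.08 and 4.22 CPM at 34 °C. Those of hsf-1(sy441) held 0.226, 0.111 and 0.301 CPM and 12.6, 10.6 and 7.75 CPM. Those of the transgene strain held 0.391, 0.458 and 0.430 CPM and 11.4, 10.37 and 6.59 CPM. hsf-1(sy441) was thus below N2 in every library before heat and above it in every library after heat, and its log2 heat response of 5.90 ± 0.36 stood beside 3.66 ± 0.33 in N2. The counts at 20 °C were low, with 35 fragments in the 3 N2 libraries together and 18 in those of hsf-1(sy441).

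fbxb-72 belongs to a large nematode family of F-box genes, whose products are adaptors of ubiquitin ligases. At 20 °C its level was 0.127, 0.186 and 0.107 CPM in N2, 0.0970, 0.334 and 0.226 CPM in hsf-1(sy441) and 0.279, 0.183 and 0.107 CPM in the transgene strain. At 34 °C it was 5.51, 7.79 and 5.45 CPM, 7.45, 9.47 and 8.92 CPM and 9.85, 9.89 and 15.2 CPM in the same order. The gene was close to silent in all strains before heat, with 10, 18 and 11 fragments in the 3 groups, and every 34 °C library of the transgene strain lay above every one of the other strains. Its log2 heat responses of 5.66 ± 0.38, 5.62 ± 0.35 and 6.17 ± 0.37 were among the highest of the 14.

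spe-36 encodes a secreted sperm protein required for fertilization. Its 20 °C level was 0.0426, 0.0375 and 0.272 CPM in N2, 0.232, 0.187 and 0.152 CPM in hsf-1(sy441) and 0, 0.0462 and 0.326 CPM in the transgene strain. At 34 °C it was 4.03, 8.29 and 2.81 CPM, 6.04, 7.68 and 9.31 CPM and 9.05, 10.9 and 7.99 CPM. These L2 larvae precede sperm formation, and before heat the gene was at 7, 16 and 7 fragments per group, with 1 transgene library at 0. The fitted log2 responses of 5.82 ± 0.66, 5.63 ± 0.60 and 6.50 ± 0.66 rested on these few fragments, and with the replicate number as a block their errors of 0.60, 0.51 and 0.58 were the largest of the 14 in each strain.

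F40F11.3, an uncharacterised gene, is the neighbour of spe-36 on the same strand, and the deposited table gives both the same locus (chromosome IV, 11585201 to 11592835, build ce10), which also holds F12F6.1. Its 20 °C level was 3.89, 4.46 and 6.34 CPM in N2, 6.37, 6.64 and 7.26 CPM in hsf-1(sy441) and 4.19, 3.84 and 6.93 CPM in the transgene strain. After heat it was 14.6, 26.2 and 10.3 CPM, 20.4, 20.4 and 26.6 CPM and 21.2, 23.4 and 18.3 CPM. Among the N2 libraries at 34 °C, both genes were highest in the second, and reads between adjoining genes may have been divided by the counting, so these 2 are not independent members. F12F6.1, on the other strand, had log2 heat changes of -0.03, 0.16 and 0.08 across the strains in the order N2, mutant and transgene, and its heat change was not called in any strain by edgeR (adjusted p = 0.89, 0.31 and 0.64).

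spe-5 encodes a vacuolar ATPase B subunit paralog that acts in sperm formation. It measured 2.37, 1.86 and 2.85 CPM at 20 °C and 7.46, 8.66 and 7.97 CPM at 34 °C in N2. It measured 1.94, 1.93 and 2.41 CPM and 7.59, 8.54 and 9.55 CPM in hsf-1(sy441). It measured 2.57, 2.104 and 2.31 CPM and 7.71, 8.27 and 7.40 CPM in the transgene strain. The 3 strains overlapped at both temperatures, and the gene had the smallest mean heat response of the 14, with log2 changes of 2.05 ± 0.15, 2.37 ± 0.15 and 2.02 ± 0.15. The 4 germ line markers (pgl-1, pgl-3, glh-1 and gld-1) summed to 90.9 to 102.9 FPKM in N2 at 20 °C and 84.9 to 101.0 FPKM at 34 °C. In hsf-1(sy441) they summed to 83.6 to 88.6 FPKM and 78.0 to 80.4 FPKM, and in the transgene strain to 52.0 to 88.1 FPKM and 56.9 to 79.9 FPKM, at the same temperatures. Their part in the levels of spe-5 and spe-36 was not tested.

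C13G3.1 and F41C3.2 have no given function and were, with F59C12.4, the most abundant of the 14 at 34 °C by CPM. C13G3.1 stood at 6.72, 8.59 and 7.96 CPM in N2 at 20 °C, 10.9, 11.5 and 11.8 CPM in hsf-1(sy441) and 7.20, 9.52 and 10.7 CPM in the transgene strain. At 34 °C it stood at 59.5, 74.1 and 99.2 CPM, 64.8, 61.1 and 115 CPM and 79.0, 78.2 and 145 CPM in the same strains. The heated strains overlapped, and the third library was the highest of its group in each strain.

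At 20 °C the level of F41C3.2 was 3.55, 4.24 and 14.2 CPM in N2, 15.1, 19.1 and 24.4 CPM in hsf-1(sy441) and 5.69, 10.6 and 24.7 CPM in the transgene strain. At 34 °C it was 26.5, 36.0 and 112 CPM, 99.8, 85.3 and 194 CPM and 93.0, 68.2 and 236 CPM. The third library was the highest in all 6 groups, and the third N2 library at 34 °C exceeded 2 of the 3 hsf-1(sy441) libraries. The log2 heat response was 3.29 ± 0.73, 3.02 ± 0.71 and 3.57 ± 0.73 in the 3 strains. With the replicate number as a block it was 3.25 ± 0.32, 2.94 ± 0.30 and 3.57 ± 0.32, so the error was less than that without the block. That block sets 1 effect per replicate number for all 6 groups alike, and is not a pairing within each strain.

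F59C12.4 has the shortest locus of the 14 (273 bases on chromosome X) and no given function. Its 20 °C level was 11.6, 11.7 and 10.5 CPM in N2, 15.2, 13.3 and 15.9 CPM in hsf-1(sy441) and 15.2, 8.97 and 15.4 CPM in the transgene strain. Its 34 °C level was 51.3, 76.2 and 34.7 CPM, 72.7, 64.9 and 69.0 CPM and 69.6, 40.6 and 51.3 CPM. The 3 strains overlapped after heat, and the hsf-1(sy441) libraries kept within the range of N2. The log2 responses were close to each other, at 2.54 ± 0.27, 2.56 ± 0.27 and 2.31 ± 0.27.

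R10D12.1, F15E6.3 and F21C10.10 were each highest among the N2 heat-shocked libraries in the second one. For R10D12.1 the 20 °C values were 1.86, 3.72 and 3.49 CPM in N2, 4.33, 4.52 and 4.70 CPM in hsf-1(sy441) and 2.85, 2.97 and 6.99 CPM in the transgene strain. Its 34 °C values were 12.97, 38.02 and 13.1 CPM, 21.8, 21.9 and 30.7 CPM and 28.3, 42.8 and 31.4 CPM. The second N2 library was above all hsf-1(sy441) libraries and the other two N2 libraries were below them all. F15E6.3 measured 0.719, 1.11 and 1.34 CPM in N2 at 20 °C, 0.420, 0.630 and 0.489 CPM in hsf-1(sy441) and 0.614, 0.915 and 0.806 CPM in the transgene strain. After heat it measured 4.92, 18.7 and 3.34 CPM, 7.73, 6.25 and 8.02 CPM and 8.997, 10.8 and 6.66 CPM. Its N2 mean at 34 °C had an SD of 8.47 CPM around 8.995 CPM, so the ratio that admitted it is within the spread of the N2 libraries.

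F21C10.10 lies near the hsp-16.11 and hsp-16.49 genes on chromosome V in the order of the reference annotation. It measured 8.16, 12.08 and 8.92 CPM in N2 at 20 °C, 5.98, 6.30 and 7.11 CPM in hsf-1(sy441) and 8.09, 8.83 and 10.9 CPM in the transgene strain. At 34 °C it measured 23.2, 45.8 and 23.96 CPM, 23.8, 18.2 and 37.8 CPM and 30.9, 41.3 and 48.4 CPM. T27E4.1, which lies between it and hsp-16.11, went the other way in the mutant: its log2 change on heat was 1.22 in N2 and -1.50 in hsf-1(sy441) (adjusted p = 0.0051 and 0.002 by edgeR). T24C4.5, the last of the 14, stood at 1.69, 1.38 and 1.88 CPM in N2, 1.58, 1.63 and 1.54 CPM in hsf-1(sy441) and 1.56, 0.869 and 1.67 CPM in the transgene strain at 20 °C. After heat it stood at 9.12, 11.5 and 9.78 CPM, 7.73, 10.00 and 7.55 CPM and 9.04, 9.14 and 8.88 CPM. It was the least variable of the 14 across heated transgene libraries, and its strains overlapped at both temperatures.

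**Figure D2:**
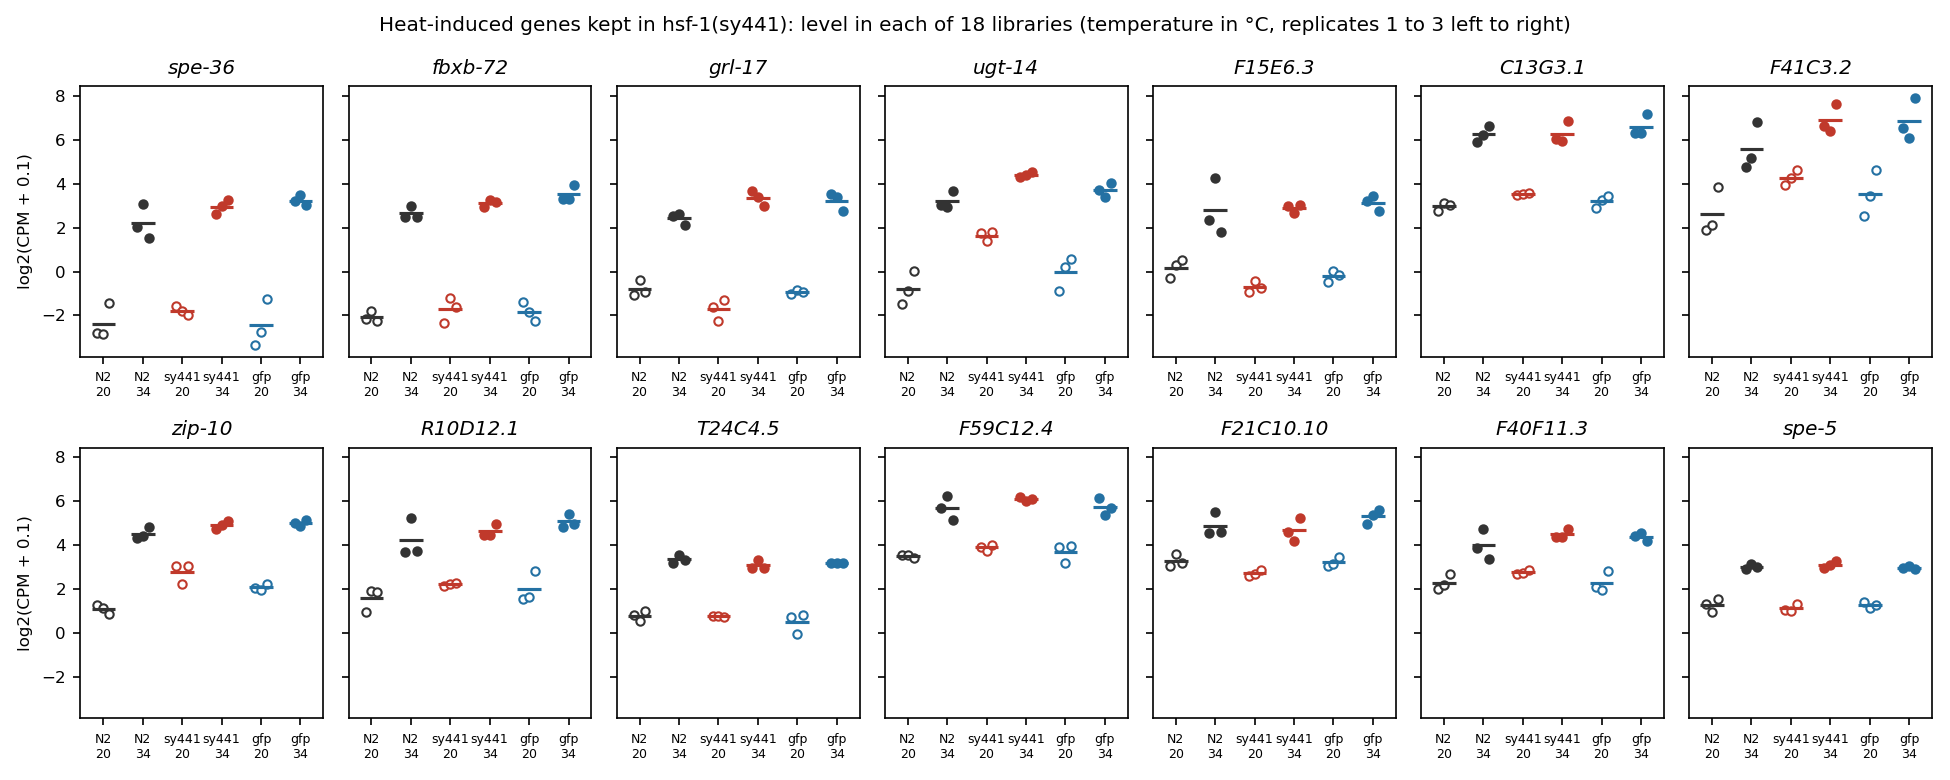
The panels show log2(CPM + 0.1) of each of the 14 genes in 18 libraries, by strain and temperature in °C, with the transgene strain written as gfp, open circles for 20 °C, filled circles for 34 °C and bars for the mean of the plotted values. Every filled circle lies above every open circle of the same strain, which the rule required, and the open circles of ugt-14 and zip-10 are higher in hsf-1(sy441) than in N2.

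On the log2 scale of the fit across all genes, the 14 genes had a median heat response of 3.34 in N2 (1.94 to 5.82), 2.90 in hsf-1(sy441) (2.07 to 5.90) and 3.43 in the transgene strain (2.02 to 6.50), beside medians of 0.02, 0.05 and 0.02 over all 14219 genes tested. The rule fixed the direction, so these are descriptions. Log2 changes are relative to TMM scaling, and scaling by library totals alone moved the median heat change of all genes by -0.27 in N2, -0.34 in hsf-1(sy441) and -0.28 in the transgene strain. The genes differed in how the response compared between strains. In grl-17 the response of hsf-1(sy441) exceeded that of N2 by 2.24 ± 0.48 (SE), whereas in zip-10 and ugt-14 it was smaller by the values -1.29 ± 0.27 and -1.29 ± 0.47. The difference for the other 11 genes lay between -0.45 (C13G3.1) and 0.78 (F15E6.3). These differences are built from values that the rule used and are a description. In those 3 genes the 20 °C level differed between the strains in the direction opposite to the response, and the response and that difference are computed from the same 20 °C libraries.

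**Figure D3:**
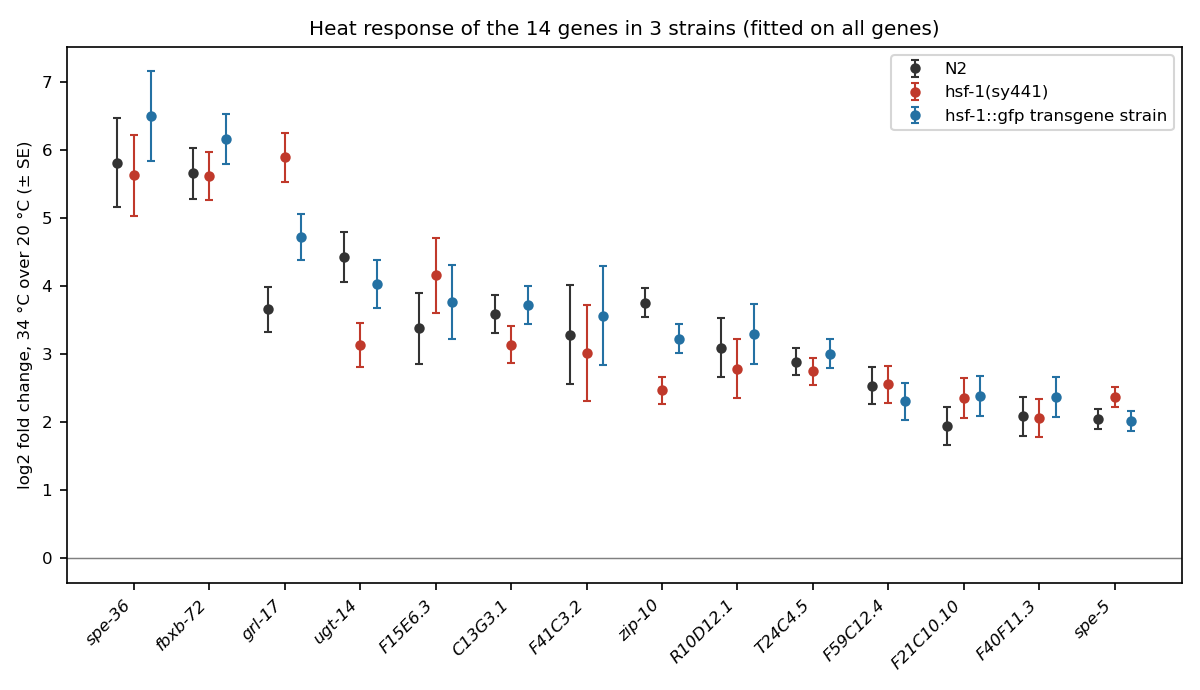
Points give the fitted log2 fold change between 34 °C and 20 °C for each of the 14 genes in the 3 strains, and bars give ± SE from 3 libraries per group. grl-17 is highest in hsf-1(sy441) at 5.90, and zip-10 and ugt-14 are lowest in that strain at 2.47 and 3.14.

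The comparison of strains before heat was not part of the selection, although the 20 °C means entered the folds. In hsf-1(sy441) at 20 °C, zip-10 and ugt-14 were raised and grl-17 was reduced relative to N2. The means were 6.94 ± 2.09 against 2.04 ± 0.304 CPM for zip-10, 3.03 ± 0.477 against 0.538 ± 0.340 CPM for ugt-14 and 0.213 ± 0.0956 against 0.493 ± 0.154 CPM for grl-17. The log2 differences were 1.55 ± 0.20 for zip-10 (adjusted p = 0.00025, edgeR quasi-likelihood test), 2.34 ± 0.37 for ugt-14 (edgeR adjusted p = 0.001) and -1.41 ± 0.40 for grl-17 (edgeR adjusted p = 0.026). These 3 of the 14 genes passed the threshold of 0.05, near the 20.9% of all genes tested, so the count itself is no result about the 14. The other 11 did not pass, among them F21C10.10 with a log2 difference of -0.79 ± 0.28 (edgeR adjusted p = 0.058), spe-5 with -0.36 ± 0.15 (edgeR adjusted p = 0.096), F15E6.3 with -1.22 ± 0.57 (edgeR adjusted p = 0.13) and F41C3.2 with 1.25 ± 0.69 (edgeR adjusted p = 0.20). All hsf-1(sy441) libraries lay above all N2 libraries in CPM for 7 of the 14 genes, beside 39.5% of all genes tested, and below for 3, beside 13.1%, and nothing is read from these counts. The call for grl-17 was lost when any of 5 libraries was left out, namely N2 replicates 1 and 2 and all 3 replicates of hsf-1(sy441) at 20 °C (edgeR adjusted p up to 0.14).

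Gene lists went both ways between hsf-1(sy441) and N2 at 20 °C. By edgeR at an adjusted p of at most 0.05, 11 of 24 cuticle and molting genes, 18 of 34 ubiquitin and proteasome genes, 6 of 15 endoplasmic reticulum genes, 4 of 11 mitochondrial genes, 3 of 13 cytosolic chaperone genes and 4 of 20 transcription factor genes were lower and none of these was higher, beside 11.5% of all genes called lower. In the other direction, 4 of 12 intracellular pathogen response genes, 4 of 14 osmotic and wound response genes and 1 of 4 inducible heat shock genes were higher and none of these was lower, beside 9.42% of all genes called higher. The metal, oxidant and xenobiotic list had 3 of 17 lower and 1 higher, and none of 3 vitellogenin genes was called. With library totals in place of TMM, 6.26% of all genes were called lower and 19.6% higher. The cuticle and molting count was again 11 lower. The ubiquitin and proteasome list had 6 lower and 1 higher, and the endoplasmic reticulum list had 3 lower. The mitochondrial list had 1 lower, the cytosolic chaperones 2 lower and 1 higher, and the transcription factors 3 lower and 2 higher. The intracellular pathogen list had 4 higher, the osmotic and wound list 5 higher and the inducible heat shock list 1 higher. The metal, oxidant and xenobiotic list had 2 lower and 2 higher. The 5 hypodermis markers dpy-7, lin-26, elt-3, rol-6 and dpy-10 summed to 478.8 to 1028 FPKM in hsf-1(sy441), 1086 to 2292 FPKM in the transgene strain and 1795 to 2834 FPKM in N2. Since dpy-7, rol-6 and dpy-10 are also in the cuticle and molting list, this sum is not a separate observation. The part of these markers in the differences of zip-10, ugt-14 and grl-17 was not tested.

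The comparisons of strains at 20 °C share libraries and are not independent. The transgene strain took an intermediate place in mean CPM for zip-10 and ugt-14. zip-10 was higher in it than in N2 at 20 °C, at 4.15 ± 0.440 CPM, a log2 difference of 0.92 ± 0.21 (edgeR adjusted p = 0.04), and no other gene of the 14 was called, against 1.33% of all genes. With the replicate number as a block the same gene was called (edgeR adjusted p = 0.022), against 4.52% of all genes. This call was lost in 14 of the 18 fits that left out 1 library (edgeR adjusted p from 0.0048 to 0.16), among them the fit without the third transgene library at 20 °C (edgeR adjusted p = 0.16). ugt-14 was higher in hsf-1(sy441) than in the transgene strain, where it stood at 0.965 ± 0.481 CPM, by 1.53 ± 0.35 on the log2 scale (edgeR adjusted p = 0.019), the 1 call among the 14 against 4.63% of all genes. It was lost without replicate 1 or 3 of hsf-1(sy441), or replicate 1 or 2 of the transgene strain, at 20 °C (edgeR adjusted p up to 0.079), and kept without replicate 3 of the transgene strain at 20 °C (edgeR adjusted p = 0.018). zip-10 differed by 0.63 ± 0.20 in that comparison (edgeR adjusted p = 0.088). Between the transgene strain and N2 at 20 °C, the libraries of ugt-14 overlapped. The log2 difference there was 0.81 ± 0.40 and not called (edgeR adjusted p = 0.51).

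**Figure D4:**
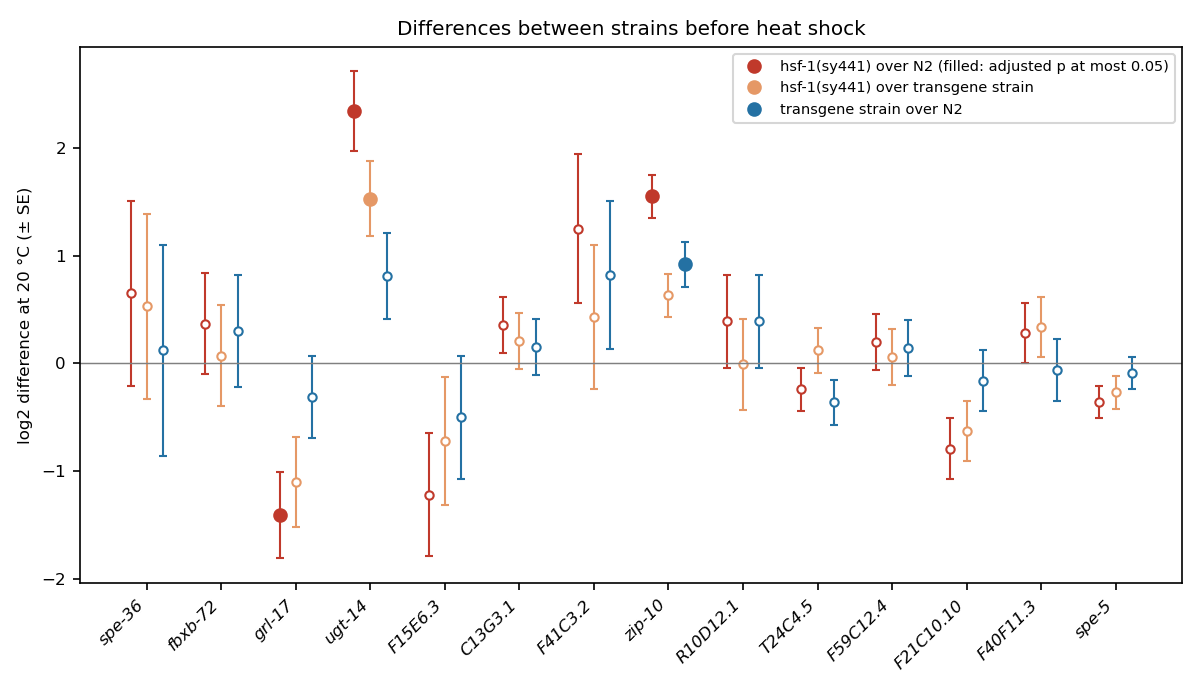
For each of the 14 genes, points give the log2 difference at 20 °C between hsf-1(sy441) and N2, between hsf-1(sy441) and the transgene strain, and between the transgene strain and N2, with bars of ± SE and filled points at an edgeR adjusted p of at most 0.05. ugt-14 at 2.34 and zip-10 at 1.55 stand highest for hsf-1(sy441) over N2, and grl-17 at -1.41 stands lowest.

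At 34 °C, none of the 14 genes was called between the transgene strain and N2 by edgeR, where 2.71% of all genes were. The N2 mean at 34 °C was the lower term of the ratio that chose the genes. The rule thus favoured genes low in heated N2, and the 34 °C means of both strains also entered the heat conditions. Neither the direction of the differences below nor their p-values are independent of the selection. At an unadjusted edgeR p under 0.05 there were 3 (grl-17, fbxb-72 and zip-10), against 17.4% of all genes. DESeq2 called 1 of the 14, against 6.57% of the genes it tested, and limma called 0, against 1.51%. With the replicate number as a block, shared by all 6 groups, edgeR called 3 genes against 8.45% of all genes. These were grl-17 by 0.75 ± 0.19 (edgeR adjusted p = 0.03), F41C3.2 by 1.18 ± 0.28 (edgeR adjusted p = 0.028) and fbxb-72 by 0.82 ± 0.21 (edgeR adjusted p = 0.031), all higher in the transgene strain. Without the block the same differences were 0.76 ± 0.27 for grl-17 (edgeR adjusted p = 0.16), 1.1 ± 0.67 for F41C3.2 (edgeR adjusted p = 0.43) and 0.81 ± 0.26 for fbxb-72 (edgeR adjusted p = 0.13).

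F41C3.2 was highest in replicate 3 in 6 of 6 groups, whether in CPM, after TMM scaling or in FPKM. For other genes the count depended on the scale. For ugt-14 it was 6 of 6 groups in CPM, 5 after TMM scaling and 4 in FPKM. For C13G3.1 it was 5, 4 and 4 groups and for zip-10 it was 5, 4 and 2 groups, in the same order of scales. In the same libraries the cuticle and molting genes were low: the median deviation of the list from its group mean was between -0.64 and -1.36 on the log2 scale in replicate 3 of the 6 groups and above 0 in replicates 1 and 2 of all of them. The inducible heat shock list was high in the third library at 20 °C, with a median deviation of 1.93 in the transgene strain, 0.77 in N2 and 0.15 in hsf-1(sy441). In the third N2 library at 34 °C the 3 vitellogenin genes deviated by a median of 2.94. The part of these lists in the level of F41C3.2 was not tested. In N2 at 34 °C, the second library was above the group mean for 10 of the 14 genes, with F15E6.3 the farthest. Without replicate 3 of every group, a setting chosen after seeing the data, 14 genes again met the rule, 12 of them shared, and F41C3.2 was then called higher in hsf-1(sy441) than in N2 at 20 °C, by 1.93 on the log2 scale (edgeR adjusted p = 0.0021).

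**Figure D5:**
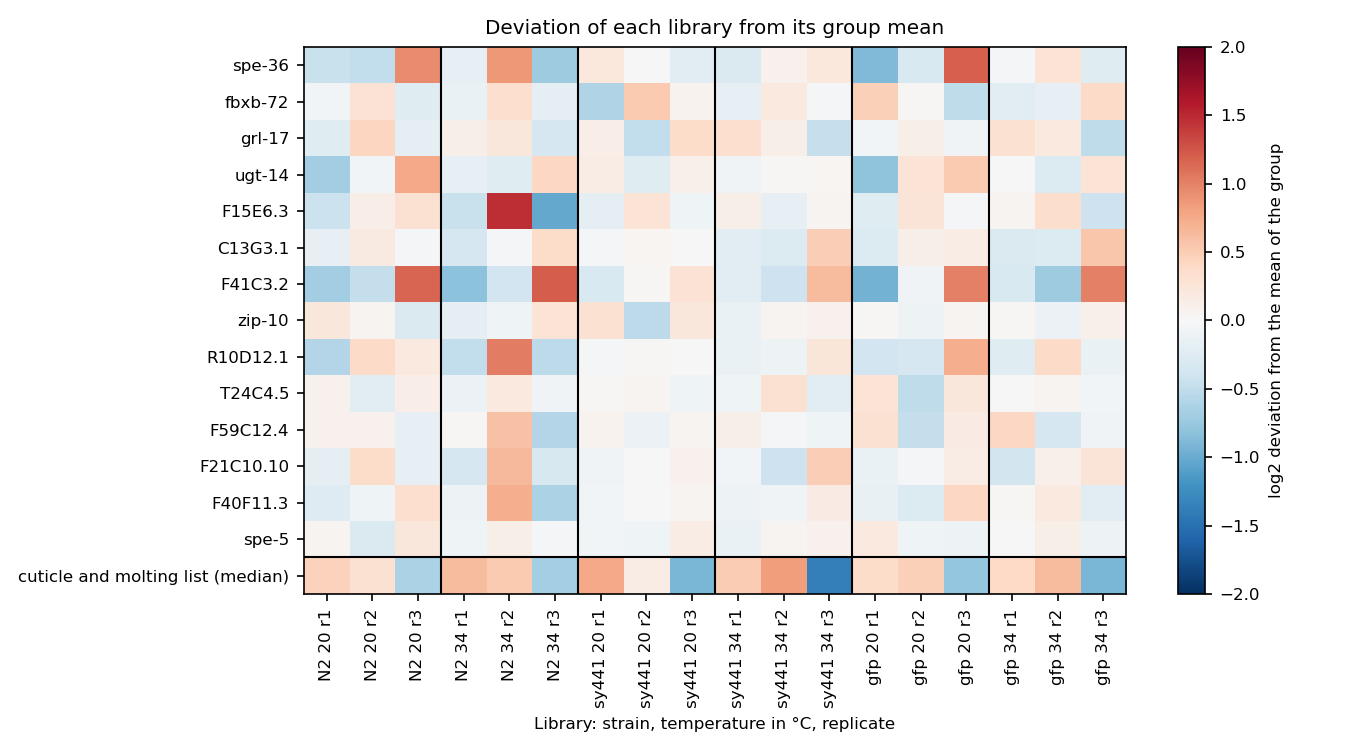
Colours give the log2 deviation of each library from the mean of its group for the 14 genes, with the median deviation of the cuticle and molting list in the lowest row and libraries (strain, temperature in °C, replicate r1 to r3) in columns. F41C3.2 is above its group mean in every replicate 3 column, where the cuticle and molting row is below, at -0.64 to -1.36.

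Corrected for transcript length in the authors' FPKM, levels in heated N2 spanned from 713 FPKM for F59C12.4 to 5.08 FPKM for grl-17. C13G3.1 followed at 133.8 FPKM, then F40F11.3 at 59.4, F21C10.10 at 54.3 and zip-10 at 53.7 FPKM, 3 values closer to each other than the spread between their libraries. F41C3.2 stood at 40.5 FPKM in N2 but at 83.1 FPKM in hsf-1(sy441) and 87.6 FPKM in the transgene strain. The lower part of the order ran from F15E6.3 at 30.6 and R10D12.1 at 15.6 FPKM to T24C4.5, fbxb-72, ugt-14, spe-5 and spe-36 at 8.93, 7.65, 6.91, 6.14 and 5.54 FPKM. FPKM of a very short gene depends strongly on the effective length assumed, which applies to F59C12.4.

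On the genome, 7 of the 14 genes lay on chromosome V (50.0%, beside 21.2% of the genes tested), 3 on IV and 1 each on I, II, III and X. Those on V were C13G3.1 (11011425 to 11012444), grl-17 (13561987 to 13563901), F21C10.10 (9095985 to 9098674), ugt-14 (4906269 to 4908288), fbxb-72 (722696 to 723828), R10D12.1 (13932567 to 13934631) and zip-10 (11645461 to 11650780), all in build ce10 as the deposited table gives the loci. Apart from F40F11.3 and spe-36, no 2 of them were adjacent. In 6 genes the table's locus also holds another gene, and the sources used give no stranding of the counts, so reads of zip-10 and the opposite-strand skp-1 gene, which encodes a splicing-associated SKIP homologue, cannot be told apart in their overlap. skp-1 had log2 heat changes of 0.14, 0.16 and 0.08, none called (edgeR adjusted p = 0.24, 0.19 and 0.53).

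The induction did not extend to most adjoining genes. Of 26 immediate neighbours outside the 14, 23 were tested, and 4 of these were called up by heat in all 3 strains (mig-38, acs-11, ucr-2.3 and chp-1, with log2 changes from 0.22 to 0.70), where 10.0% of all genes tested were. With library totals in place of TMM, mig-38 in N2 and chp-1 in hsf-1(sy441) were lower in mean CPM at 34 °C. hot-6 and slrp-1 were called down in all 3 strains, where 12.3% of all genes were, and the other 17 were called in neither way. ugt-14 sits in a run of related genes, and ugt-8, ugt-13, ugt-67 and ugt-10 were not called up in all 3 strains. At 20 °C, ugt-10 (log2 difference 1.94, edgeR adjusted p = 0.01) and ugt-67 (0.80, edgeR adjusted p = 0.02) were higher in hsf-1(sy441) than in N2, as ugt-14 was, while ugt-8 (0.33, edgeR adjusted p = 0.074) and ugt-13 (1.24, edgeR adjusted p = 0.16) were not called. Some other neighbours are named after their values were seen, and these are not all that differed. Next to fbxb-72, icl-1, the glyoxylate cycle gene, was lower in hsf-1(sy441) at 20 °C by the log2 value -2.32 (edgeR adjusted p = 0.0009), and next to F15E6.3 the ion channel gene lgc-22 had -5.17 (edgeR adjusted p = 0.024). Lower too, at 2 places away, were H23N18.5 near ugt-14 (-4.83, edgeR adjusted p = 0.028) and F46F3.3 near zip-10 (-4.11, edgeR adjusted p = 0.022).

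Genes of other stress pathways were counted as risen where edgeR called them up in all 3 strains (adjusted p at most 0.05 in each), which 10.0% of all genes tested were. All 4 tested inducible heat shock genes (hsp-70, hsp-16.2, hsp-16.41 and hsp-16.48) rose. The list held 9 genes, and the rest were not tested, owing to a failed status or the filter on low counts. hsp-16.48 was near the floor, at 0.513 CPM in N2, 0.253 CPM in hsf-1(sy441) and 0.751 CPM in the transgene strain at 34 °C. Among the cytosolic chaperones 4 of 13 rose, including hsp-90, by 1.84 in N2 and 0.80 in hsf-1(sy441). hsp-4, the endoplasmic reticulum BiP gene, was the 1 of 15 genes of that list to rise, by 3.03 in N2 and 0.66 in hsf-1(sy441), while ire-1 fell. The mitochondrial list had 2 of 11 (hsp-6 and timm-23), although with library totals the mean CPM of hsp-6 was lower at 34 °C in hsf-1(sy441), as was that of the chaperone gene dnj-19. Of 12 genes of the intracellular pathogen response 0 rose by edgeR and pals-25 fell.

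Genes of osmotic, metal and transcriptional responses behaved differently among themselves. The osmotic and wound list had 3 of 14 (gpdh-1, cnc-2 and cnc-4). gpdh-1, which makes the osmolyte glycerol, rose by 0.96 in N2 and 1.21 in hsf-1(sy441), below the 3-fold condition. cnc-2 rose by 1.60 in N2, 1.72 in hsf-1(sy441) and 1.29 in the transgene strain on the TMM-scaled log2 scale. In the CPM on library totals that the rule uses it went from 1.78 to 4.40 CPM, from 1.88 to 4.99 CPM and from 1.81 to 3.66 CPM, under 3-fold and under 5 CPM in each strain. In the metal, oxidant and xenobiotic list 2 of 17 rose, aip-1 by 2.88 in N2 and 0.63 in hsf-1(sy441), and cyp-34A9 by 0.87 and 0.68. Of 20 stress and immediate early transcription factor genes tested beside zip-10, which the rule had selected and which is not counted, cebp-1 was the 1 that rose, by 0.96 in N2 and 0.86 in hsf-1(sy441), and egrh-1 fell. The cuticle list had 1 of 24 (bli-2), the ubiquitin and proteasome list 1 of 34 (ubq-2) and the vitellogenins 0 of 3 by edgeR.

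The authors' deposited tables of strain comparisons call F41C3.2 and ugt-14 different between N2 and hsf-1(sy441) at both temperatures, F41C3.2 different between N2 and the transgene strain at both temperatures, and ugt-14 different between hsf-1(sy441) and the transgene strain at 20 °C. The ratio of hsf-1(sy441) to N2 after heat chose the genes, and the heated means of all strains entered the heat conditions. The authors' calls after heat are therefore not independent of the selection and are given as a description. For zip-10 between N2 and hsf-1(sy441) at 20 °C, which edgeR called, the authors' deposited table gives a q value of 0.388. For F41C3.2 in the same comparison, which edgeR did not call with all libraries, the authors' deposited table gives 0.000776. In that table, zip-10 between N2 and the transgene strain at 20 °C, which edgeR also called, has a q value of 0.744. grl-17, spe-36 and fbxb-72 were marked as not tested between N2 and hsf-1(sy441) at 20 °C in the authors' deposited table.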

How the data were processed

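Per the submitters' processing notes, reads were handled with TopHat2 and Cuffdiff on build ce10. The sources used here name no version, strandedness or filter. The authors deposited fragments and FPKM per gene and library, and q-values of strain comparisons. The fragment values are the authors' estimated counts: the deposited values were whole for 92.43%, and the rest were rounded to whole numbers. Libraries in the table are numbered from 0 and were matched in order to labels numbered from 1. Of 20389 rows, 114 with a failed status in any library were left out (6.11 to 7.75% of the fragments). CPM uses the remaining total, 14866737 to 32312137 fragments.

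The rule, the members, the lists and the named genes were chosen with earlier results of these data known. The naming rule took the largest responses, the highest FPKM, the smallest p and the genes nearest the ratio limit, which covers all 14. Names matched the reference tables for 97.5% of usable genes. No sequence was used here.

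Genes kept by edgeR's filterByExpr (14219) were fitted with edgeR 4.0.16 (R 4.3.3) by the robust quasi-likelihood test, with 1 mean for each of 6 groups, TMM factors of 0.850 to 1.239 and Benjamini-Hochberg adjustment within each comparison at 0.05. The fit was tested on simulated data, for the unheated hsf-1(sy441) and N2 groups only. Alternatives were DESeq2 1.42.0, limma 3.58.1 on log2(FPKM + 0.1) with at least 0.5 FPKM in 3 libraries, other scalings, no filter, the replicate block and leaving out each library.

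Deviations of same-numbered libraries from their group means correlated by 0.32, 0.31 and 0.63 between the transgene strain and N2 at 20 °C, and by 0.34, 0.65 and 0.73 at 34 °C. Between the temperatures they correlated by 0.37 to 0.79 in N2, 0.18 to 0.72 in hsf-1(sy441) and 0.33 to 0.71 in the transgene strain. Every same-numbered pair was over 0.1, so for these groups a fit with the replicate block is given beside the main fit. The main fit had no block, and values given without naming the block come from fits that ignore the replicate number. Even so, 4 of the 6 libraries of N2 and the transgene strain at 20 °C correlated best with another number. So did 1 of 6 at 34 °C and 2 of the 6 of hsf-1(sy441) across temperatures. The block for heat responses was added after seeing the data. In each case the block was 1 effect per replicate number, shared by all 6 groups and so also between hsf-1(sy441) and the other strains.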

Additional observations from a re-analysis of the deposited data

How the results depend on the processing

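The number of genes meeting the rule was 23 with TMM factors in the CPM, 31 with a fold of 2, 51 with a minimum of 1 CPM and 42 on FPKM, and 12 to 16 when 1 library was left out. It was 12 with CPM over all rows, without grl-17 and spe-36, and 11 with a fold of 4, without F21C10.10, F40F11.3 and spe-5. In heated N2, spe-36 at 5.04 CPM and grl-17 at 5.29 CPM lay close to the minimum of 5 CPM. The count of the 14 genes called between hsf-1(sy441) and N2 at 20 °C was 5 with the replicate block and 2 to 5 when 1 library was left out. Between the transgene strain and N2 at 20 °C it was 0 by limma, 0 without replicate 3 of every group and 0 to 1 when 1 library was left out. Between hsf-1(sy441) and the transgene strain at 20 °C it was 2 with the replicate block, 2 by DESeq2 and 0 to 2 when 1 library was left out. Between the transgene strain and N2 at 34 °C it was 3 with the replicate block, 1 by DESeq2, 1 without replicate 3 of every group and 0 when any 1 library was left out. The cause was not tested. The median log2 difference of the 14 genes between hsf-1(sy441) and N2 at 34 °C, 0.24 with all libraries, was -0.04 without replicate 3 of every group, 0.62 without N2 replicate 2 at 34 °C and 0.05 without N2 replicate 3 at 34 °C, the ends of the range when 1 library was left out. Calls of zip-10 and ugt-14 between hsf-1(sy441) and N2 at 20 °C were kept in all 25 alternatives run.

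For all genes, calls between hsf-1(sy441) and N2 at 20 °C numbered 2969, against 5181 with the block, 1527 by limma and 878 to 3611 with 1 library left out. Between hsf-1(sy441) and the transgene strain they numbered 659, against 2715 with the block, 1523 by DESeq2, 414 by limma, 1902 without replicate 3 of every group and 328 to 804 with 1 library left out. Between the transgene strain and N2 they numbered 189 at 20 °C, against 642, 450 and 120 with the block, by DESeq2 and by limma, and 101 to 219 with 1 library left out. At 34 °C they numbered 386, against 1202, 915 and 222 in the same order, and 164 to 874. With library totals alone, 75.8% of the calls between hsf-1(sy441) and N2 at 20 °C were higher in the mutant, against 45.1% with TMM; the shares were 77.9% against 55.1% for hsf-1(sy441) over the transgene strain, 82.5% against 71.4% for the transgene strain over N2 at 20 °C and 81.2% against 59.8% at 34 °C.

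For the pairs of groups with hsf-1(sy441), same-numbered libraries correlated by 0.41, -0.06 and 0.22 with N2 at 20 °C. With the transgene strain they correlated by 0.29, 0.05 and 0.53. Not every same-numbered pair was thus over 0.1, and not every library correlated best with its own number. The third libraries of hsf-1(sy441) and the transgene strain, at 0.53, each correlated negatively with the other numbers of the other strain. For these pairs of groups, the fit with the shared replicate block also called F41C3.2 and F21C10.10 against N2 (adjusted p = 0.0029 and 0.039 by edgeR) and zip-10 against the transgene strain (adjusted p = 0.032 by edgeR). Genes at 20 °C with 7 to 35 fragments per group (spe-36, fbxb-72, grl-17, and ugt-14 in N2) limit what their folds can show.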
